A study of Homo sapiens with 6 samples.

Results

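A2780CIS is a cisplatin-resistant derivative of the human ovarian cancer cell line A2780, obtained per the labels by long exposure to cisplatin with selection of resistant cells, and labelled as high in endogenous COL11A1. Its 1 RNA sequencing library was set against the 3 other A2780 libraries of the series, and genes lying outside the range of those 3 were examined: 9227 of 12083 genes tested, or 76.4%. The 3 others were A2780-scrambled shRNA, A2780-shCOL11A1 (a short hairpin RNA against COL11A1) and A2780-COL11A1 (A2780 transfected with COL11A1); wherever 3 values follow a value of A2780CIS, they stand in that order. The series also holds 2 libraries of a second ovarian cancer line, OVCAR3-GFP and OVCAR3-COL11A1, making 6 in all, each sequenced once. The cells of every culture were grown in the same serum-containing medium. Whether A2780CIS was kept in cisplatin, how many passages separate it from A2780, whether a line is 1 clone and whether the A2780CIS culture carried a transfected construct are not stated in the labels, so resistance, culture history and construct cannot be told apart. No labelled unmodified A2780 culture was analysed here.

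Cisplatin forms crosslinks between neighbouring purines in DNA, which stall replication and can start apoptosis. Resistance in cultured cells is known to arise through lower drug uptake, binding by thiols, faster excision of the lesions, tolerance of unrepaired lesions through loss of mismatch repair, and blocked cell death. Long selection also lets lines drift apart in lineage genes, chromosome content and DNA methylation. COL11A1 encodes a chain of type XI collagen, a minor fibrillar collagen of cartilage that is also made by the stroma of many carcinomas.

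Values are in FPKM, fragments per unit of transcript length and of library depth. Differences are given as log2(FPKM + 1) in A2780CIS minus the mean of the 3 others, with the standard error from limma, a linear model with moderated variances. "Rose" and "fell" are used for genes past a Benjamini-Hochberg adjusted p of 5% in that model. The model takes the spread of the lone A2780CIS library to be that of the 3 others, which are different constructs and not repeats, so its p-values do not cover variation between cultures of A2780CIS. The gap of a gene is its log2 distance to the nearest of the 3 others.

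A2780CIS stood apart from its line. Pearson's r of log2(FPKM + 1) across the 12083 genes was 0.832 with A2780-scrambled shRNA, 0.826 with A2780-shCOL11A1 and 0.841 with A2780-COL11A1, while the 3 others had r between 0.961 and 0.988 with each other. With the OVCAR3 libraries r was 0.744 and 0.699. Genes are not independent replicates in these values. Of 151 genes on in all 3 other A2780 libraries and off in both OVCAR3 libraries, 88 were at 5 FPKM or more in A2780CIS and 34 were under 0.5 FPKM. Of 323 genes with the opposite pattern, 25 were at 5 FPKM or more in A2780CIS and 258 under 0.5 FPKM. A2780CIS thus shared more of the A2780 than of the OVCAR3 pattern, and identity by genotype was not tested.

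Relative to A2780-scrambled shRNA, depth estimated from the steps between the lowest values was 0.745 in A2780CIS, 0.886 in A2780-shCOL11A1 and 1.60 in A2780-COL11A1; absolute depth is unknown. Between 11709 and 11823 genes had at least 1 FPKM in each of the 4 A2780 libraries. Endothelial markers summed to 0.108 FPKM in A2780CIS, with 7 of 8 under 0.1 FPKM. Leukocyte markers summed to 16.4 FPKM in A2780CIS, against 5.90 to 10.2 FPKM in the 3 others, with 5 of 10 under 0.1 FPKM in A2780CIS. Lineage markers could not decide the ovarian cancer label of the A2780 libraries, since some were expressed and others nearly absent. On the list of 17, expression was high enough for a test in 4, of which 0 rose and 2 fell. MUC16, MSLN and WFDC2 were at most 0.214 FPKM in each of the 4, and the 17 markers summed to 11.3 FPKM in A2780CIS, against 162 to 241 FPKM in the 3 others, most of it CRABP2. The retinoic acid carrier CRABP2 had 5.99 FPKM in A2780CIS, against 191, 195 and 148 FPKM. The epithelial list summed to 119 FPKM against 97.0 to 114 FPKM, with 2120 to 3718 FPKM in OVCAR3. A library of 1 culture cannot tell a change in every cell from a change in the share of cells.

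In A2780CIS 4268 genes lay above the range of the 3 others (35.3%) and 4959 below it (41.0%). With 1 library and 3, most of these distances were small: the median gap was 0.39, 1386 genes lay outside the range by less than 0.1 and another 1316 lay inside it within 0.1 of an edge. At least a 2-fold gap on the log2(FPKM + 1) scale was found above the range for 788 genes (6.52%) and below it for 753 (6.23%), and at least a 16-fold gap for 51 and 57. By limma, 1106 genes rose (9.15%) and 1190 fell (9.85%), all of them outside the range; 4481 genes had an unadjusted p under 0.05. The 3 others spanned at least 2-fold for 698 genes (5.78%). The median difference over all genes was -0.07. A gene near 0 in A2780CIS or in the others entered the test only where the other side was high enough, so it had to differ. Counts of list members below therefore describe the tested members alone. These counts moved with the library left out of the 3: the genes that rose numbered 440 without A2780-scrambled shRNA, 609 without A2780-shCOL11A1 and 2568 without A2780-COL11A1, and those that fell 361, 526 and 3382.

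**Figure D1:**
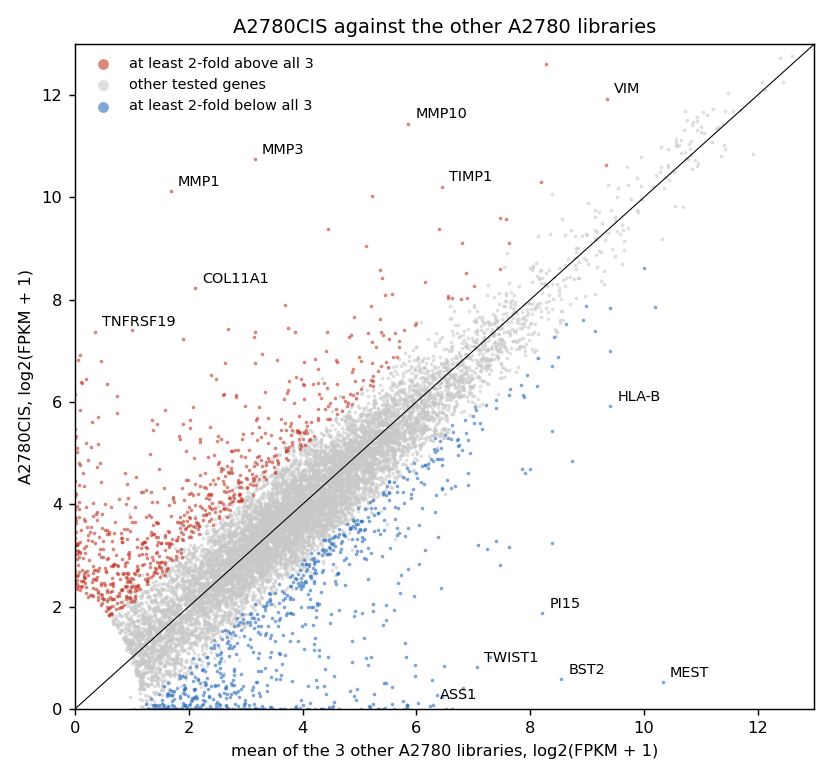
Expression of the tested genes in A2780CIS (vertical axis) against the mean of the 3 other A2780 libraries (horizontal axis), both as log2(FPKM + 1). Red points lie at least 2-fold above and blue points at least 2-fold below all 3 other libraries; MMP1, MMP3, MMP10, TIMP1, VIM and COL11A1 stand high above the line of equality, and MEST, BST2, PI15, TWIST1 and ASS1 far below it.

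The genes farthest above the range included secreted proteases, with MMP1 first. MMP1, the interstitial collagenase (chromosome 11, 102660641 to 102668966 in GRCh37), had 1109.5 FPKM in A2780CIS, against 2.37, 1.93 and 2.34 FPKM, a ratio of 501 to the mean of the others and a difference of 8.44 ± 0.19 (limma adjusted p = 0.000566). MMP3, stromelysin, which activates other metalloproteinase precursors, had 1715 FPKM against 4.63, 5.65 and 17.9. MMP12, macrophage elastase, had 81.4 FPKM against 0.0818, 0.093 and 0.103. MMP10, a second stromelysin, had 2775 FPKM against 46.2, 36.2 and 109 FPKM, the highest level of these 4 in A2780CIS. In MMP3 and MMP10 the A2780-COL11A1 library was the highest of the 3 others, still far under A2780CIS.

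TIMP1, which inhibits these proteases, rose with them to 1183 FPKM in A2780CIS, against 79.8, 90.1 and 89.8 FPKM. TIMP3, a matrix-bound inhibitor, fell to 0.295 FPKM against 5.62, 7.28 and 10.6. Of 17 tested metalloproteinases and TIMPs, 6 rose and 2 fell, with a median difference of 0.54; the remaining riser was MMP16, a membrane-bound enzyme, at 4.97 FPKM against 0.0446, 0.0762 and 0.254, and the other that fell was MMP8, neutrophil collagenase, at 0.353 FPKM against 3.88, 2.86 and 6.53. The loci of MMP1 and MMP3 overlap the pseudogene WTAPP1, which stood at 9.76 FPKM in A2780CIS, and that of TIMP1 overlaps SYN1. Without A2780-scrambled shRNA MMP8 missed the threshold (limma adjusted p = 0.0778).

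**Figure D2:**
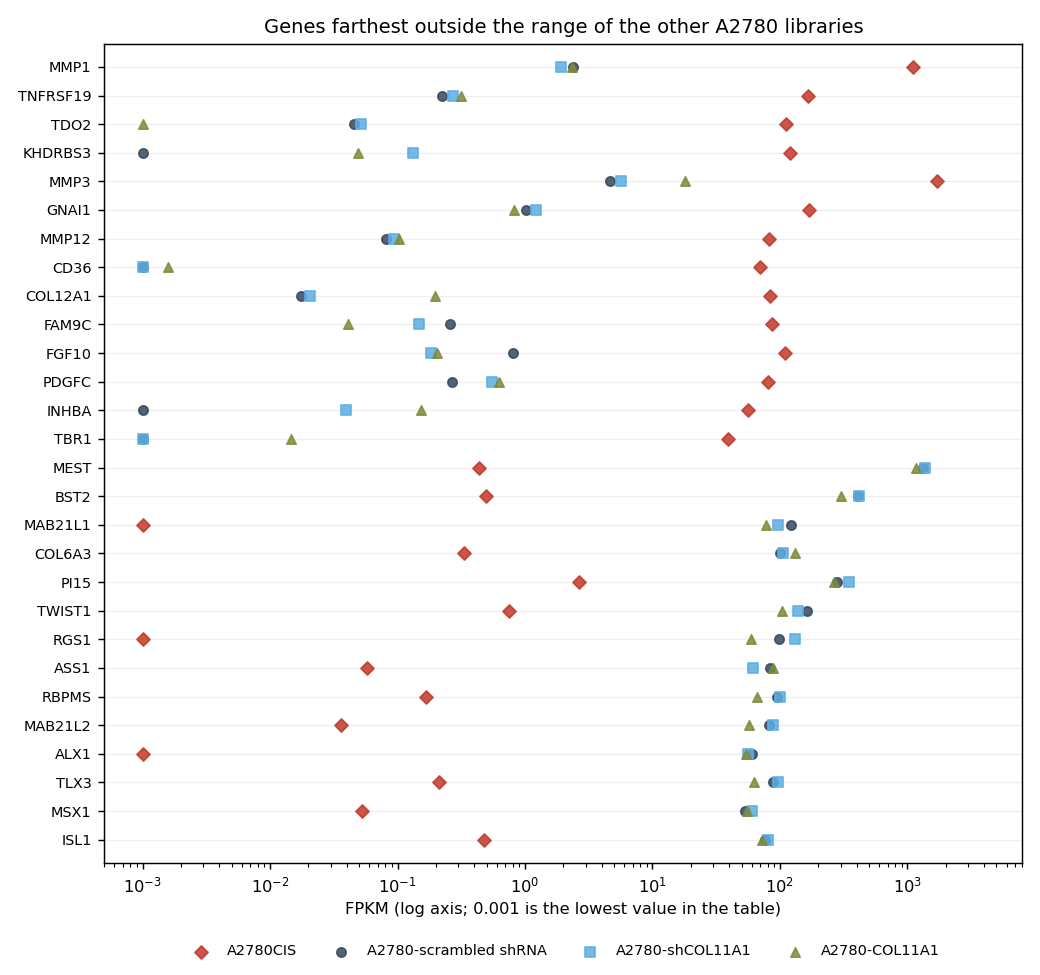
FPKM on a log axis in the 4 A2780 libraries for the 14 named genes with the largest gap above and the 14 with the largest gap below the range of the 3 other libraries; each point is 1 library. A2780CIS (red diamonds) lies outside the other 3 in each gene, from MMP1 at 1109.5 FPKM to MEST at 0.438 FPKM.

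The chromosome 11 protease genes sit beside genes that moved the opposite way. In 102217913 to 104916051 of chromosome 11 (GRCh37), 14 genes were tested, 7 rose and 5 fell. From the low-coordinate end, TMEM123 rose, MMP8 fell, MMP10, WTAPP1, MMP1, MMP3 and MMP12 rose, and so did DYNC2H1, a motor of cilia, at 29.2 FPKM against 6.66, 7.83 and 6.32. Beyond it PDGFD, a platelet-derived growth factor, fell to 0.0728 FPKM against 8.17, 8.43 and 4.59. The inflammatory caspase genes followed: CASP4, a sensor of cytosolic lipopolysaccharide, was listed at 0.001 FPKM, which is the table's lowest value, against 11.4, 14.2 and 33.8; CASP1, which matures interleukin-1 beta, at 0.001 against 6.87, 5.98 and 17.7; and CARD16, a CASP1 regulator, at 0.186 against 24.9, 20.8 and 45.7. BIRC2, an inhibitor of apoptosis at the low end, had 41.8 FPKM against 15, 12.8 and 24.7, which missed the threshold (difference 1.26 ± 0.38, adjusted p = 0.0832, limma). The call of TMEM123 ended without A2780-scrambled shRNA or A2780-shCOL11A1 (limma adjusted p = 0.138 and 0.0817).

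COL11A1 itself (103342023 to 103574052 on chromosome 1, GRCh37) stood at 297 FPKM in A2780CIS, against 4.23, 0.67 and 8.17 FPKM, as the label says, a difference of 6.11 ± 0.94 (limma adjusted p = 0.017). The fibrillar collagens did not move as a group: of 8 tested, 2 rose and 1 fell. COL3A1, the chain of another major fibril collagen, rose to 548 FPKM against 147, 123 and 75.7, and COL1A1 fell to 0.688 against 3.55, 3.43 and 4.05. COL5A2, a partner chain that regulates fibrils, had 344 FPKM against 316, 336 and 219.5 and missed the threshold (difference 0.27 ± 0.28, limma adjusted p = 0.53). Among 9 other collagen chains 4 rose and 4 fell. COL12A1, which coats fibrils, was at 82.9 FPKM against 0.0174, 0.0205 and 0.198. Within type VI collagen, a beaded-filament network built from 3 different chains, COL6A1 rose to 25.1 FPKM against 14.6, 13.9 and 13.9 and COL6A2 to 31.6 against 16.9, 14.8 and 15, while COL6A3 fell to 0.33 FPKM against 100.2, 106 and 131 FPKM. The calls of COL1A1, COL6A1 and COL6A2 ended without A2780-scrambled shRNA (limma adjusted p of 0.0614 to 0.208), and those of COL6A1 and COL6A2 without A2780-shCOL11A1 (0.123 and 0.0896).

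Mesenchymal genes were rearranged in both directions, 5 of 15 up and 4 down. Among members with a mean of at least 5 FPKM, 1 of 8 rose and 3 fell. VIM, the mesenchymal intermediate filament, rose to 3897 FPKM against 719.6, 541 and 718. SNAI2, a repressor of epithelial genes, rose to 11.6 against 1.51, 1.76 and 1.79, and CDH2, N-cadherin, to 5.94 against 0.92, 0.579 and 0.218. The paired helix-loop-helix factors went opposite ways: TWIST1 fell to 0.751 FPKM against 162, 138 and 104, while TWIST2 was at 7.29 against 0.001, 0.205 and 0.001. POSTN, periostin, fell to 7.96 against 195, 278 and 139.9, PRRX1, a mesenchymal homeodomain factor, to 0.0241 against 8.1, 8.74 and 13.5, and the YAP targets CTGF and CYR61 to 0.471 and 1.49 FPKM, against 5.18, 5.38 and 7.2 and against 9.88, 11 and 25.7. CYR61 missed the threshold without A2780-shCOL11A1 (limma adjusted p = 0.0562). Of 10 fibroblast markers, 7 were tested, 1 rose and 3 fell; their sum of 596 FPKM in A2780CIS, against 295 to 531 FPKM, was mostly COL3A1.

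Of 15 tested S100 proteins and annexins 5 rose and 0 fell. ANXA1, a phospholipid-binding protein with anti-inflammatory roles, was at 35.2 FPKM against 0.229, 0.325 and 0.433, with 472 and 281 FPKM in OVCAR3. ANXA2 rose to 74 against 12.7, 10.6 and 14.1, and S100A16 to 10.4 against 0.948, 0.629 and 0.898.

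Secreted growth factors formed a second group far above the range. FGF10, a ligand made by mesenchyme for epithelial receptors, had 109.8 FPKM in A2780CIS, against 0.805, 0.183 and 0.203 FPKM. PDGFC, a ligand of PDGF receptor alpha, had 80.2 against 0.268, 0.546 and 0.626. VEGFC, the lymphatic growth factor, had 51.1 against 0.219, 0.415 and 0.345, and KITLG, the KIT ligand stem cell factor, 68.1 against 0.837, 0.683 and 0.495. The receptor PDGFRA, which binds PDGFC, fell to 1.42 FPKM against 66.1, 56 and 44.1, and FGF18 fell to 0.566 against 78.8, 76.7 and 38.8. Over 24 tested receptor tyrosine kinases and ligands 9 rose and 5 fell, with a median difference of 0.65, which was -0.21 among members with a mean of at least 5 FPKM. Leaving out A2780-scrambled shRNA, A2780-shCOL11A1 or A2780-COL11A1 gave 6, 6 and 13 up and 2, 2 and 9 down. MDK, the heparin-binding cytokine midkine, rose to 171 against 4.74, 7.84 and 4.2, and IL11, an interleukin-6 family cytokine, to 6.82 against 0.409, 0.449 and 0.379.

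TNFRSF19, a receptor of the tumour necrosis factor family, ranked after MMP1 by its gap, at 165 FPKM against 0.223, 0.273 and 0.312 (7.03 ± 0.19). GNAI1, an inhibitory G protein subunit, was at 168 against 1.01, 1.23 and 0.818; the RNA-binding protein gene KHDRBS3 at 119 against 0.001, 0.133 and 0.0493; CD36, a fatty acid and thrombospondin receptor, at 70.2 against 0.001, 0.001 and 0.00159; FAM9C, an X-linked gene known from testis, at 86.1 against 0.26, 0.148 and 0.041; and TBR1, a T-box factor of cortical neurons, at 39.1 against 0.001, 0.001 and 0.0145. KHDRBS3, CD36, FAM9C and TBR1 were too low in the other A2780 libraries for a ratio to be given. TDO2, tryptophan 2,3-dioxygenase, which opens the kynurenine pathway, was at 113 FPKM against 0.0456, 0.0519 and 0.001, and under 0.1 FPKM in both OVCAR3 libraries.

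TDO2 and PDGFC belong to 1 neighbourhood. In 156263812 to 159094202 of chromosome 4 (GRCh37), 8 of 8 tested genes rose: MAP9, GUCY1A3, GUCY1B3, TDO2, CTSO, PDGFC, GLRB and FAM198B. MAP9, a spindle microtubule protein, had 56.1 FPKM against 1.7, 2.47 and 1.89. The subunits of soluble guanylate cyclase, the nitric oxide receptor, stood at 33.9 FPKM against 0.0825, 0.469 and 0.122 for GUCY1A3 and at 4.63 against 0.112, 0.102 and 0.0284 for GUCY1B3. Together with the chromosome 11 neighbourhood, this one was picked after its values were seen. CTSO, a protease gene, missed the threshold without A2780-scrambled shRNA (limma adjusted p = 0.0972).

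Signalling genes were also found outside the range. Of 25 tested TGF-beta and BMP response genes 11 rose and 2 fell (median 0.49); the risers numbered 7 without A2780-scrambled shRNA, 7 without A2780-shCOL11A1 and 12 without A2780-COL11A1. TGFB1, the ligand, rose to 76.8 FPKM against 21, 21.8 and 18.7; INHBA, the activin A subunit, was at 56.5 against 0.001, 0.0395 and 0.153; and ID1 and ID3, direct BMP targets, rose to 36.9 against 4.96, 6.49 and 2.99 and to 80.5 against 20.2, 15.5 and 15.9. FSTL3, which binds activin, and SKIL, a SMAD repressor, rose by 2.05 ± 0.19 and 1.91 ± 0.21.

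Of 24 tested Wnt pathway genes 10 rose and 5 fell (median 0.66, and -0.08 among those with a mean of at least 5 FPKM), and several that rose encode secreted inhibitors. The risers numbered 4, 6 and 11 and those that fell 2, 2 and 9 without A2780-scrambled shRNA, A2780-shCOL11A1 and A2780-COL11A1 in turn. DKK1, which blocks the LRP co-receptors, rose to 322 FPKM against 82.3, 74.8 and 56.7. DKK2 was at 26.1 against 0.0797, 0.001 and 0.113, WIF1, which binds Wnt ligands, rose to 86 against 16.7, 21.4 and 8.9, and NOTUM, which removes their lipid, to 11.1 against 1.66, 1.47 and 1.63. The receptor FZD8 rose to 39.1 against 5.16, 3.91 and 5.21. LGR4, the R-spondin receptor, fell to 2.76 FPKM against 37.5, 40.2 and 33.3. Without A2780-scrambled shRNA WIF1 missed the threshold (limma adjusted p = 0.0552). In the Notch list 2 of 17 rose and 1 fell, a share near the background; HES6, a helix-loop-helix factor, rose to 42.5 against 10.8, 13.4 and 10.1.

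Of 18 tested ERK feedback and ETS genes 7 rose and 2 fell (median 0.75). DUSP6, the phosphatase that switches off ERK, rose to 382 FPKM against 33.1, 38.1 and 51.3, and SPRY4, an inhibitor of receptor signalling, to 126 against 15.3, 18.5 and 29.8. The related SPRY2 fell to 166 FPKM against 290.0, 342 and 428. Of 23 immediate early genes 8 rose and 1 fell (median 0.66): EGR1 to 112 against 13.9, 27.1 and 32.4, EGR3 to 15 against 0.48, 0.631 and 1.69, and JUN, an AP-1 subunit, to 5.78 FPKM against 0.153, 0.175 and 1.22. FOS, the other classic AP-1 subunit, was inside the range at 4.08 FPKM against 3.36, 4.3 and 9.34. In DUSP6, SPRY4, EGR1, EGR3 and JUN, A2780-COL11A1 was the highest of the 3 others. The calls of SPRY2 and JUN ended without A2780-scrambled shRNA (limma adjusted p of 0.0881 and 0.065), and those of SPRY2, JUN and EGR1 without A2780-shCOL11A1 (0.0611 to 0.0984). Over all genes at least 2-fold above the range, A2780-COL11A1 was the highest of the 3 for 33.0%, against 37.0% of all tested genes; among genes at least 2-fold below, it was the lowest for 55.6%, against 47.1%.

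**Figure D3:**
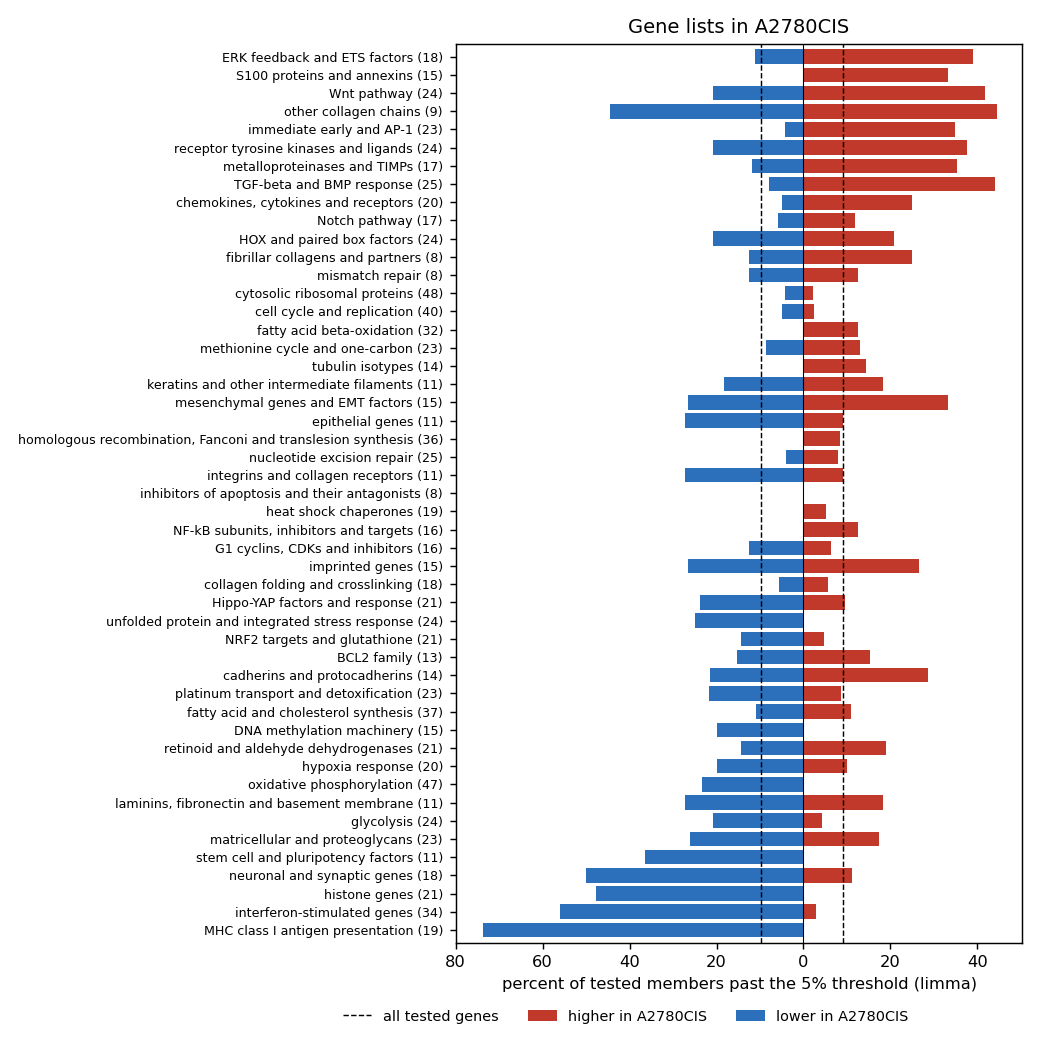
Percent of tested members of each gene list that rose (red, right) or fell (blue, left) in A2780CIS by limma at the 5% threshold, for the lists shown, each with at least 8 tested members (number in brackets), ordered by median log2 difference. Dashed lines mark the shares over all tested genes, 9.15% up and 9.85% down; MHC class I, interferon-stimulated, histone and neuronal genes reach farthest to the left, and TGF-beta and BMP response and other collagen genes farthest to the right.

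Some developmental transcription factors were on in A2780CIS and off in the others, or the reverse. A gene was counted as switched on when it had at least 5 FPKM in A2780CIS and under 0.5 FPKM in each of the 3 others, and as switched off in the opposite case. By that description 97 genes were on (90 protein-coding) and 100 off (96 protein-coding). Of the 100 off genes 11 encoded homeodomain factors outside the HOX clusters and 3 HOX factors, and of the 97 on genes 3 and 0. The list of non-HOX homeodomain factors, added after values were seen, has 56 members among the 12083 tested genes, and no test was made of these counts. Homeodomain factors set positional and lineage identity in the embryo.

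MSX1, which keeps limb and neural crest progenitors undifferentiated, fell to 0.0528 FPKM against 53.3, 60.1 and 54.7. ISL1, a factor of motor neurons and heart progenitors, fell to 0.474 against 76.9, 80.8 and 72.5, TLX3, a sensory neuron selector, to 0.213 against 88.9, 97.2 and 62.1, and ALX1, a craniofacial factor, to 0.001, against 60.3, 56.4 and 54.6. SHOX2, which acts in limb and sinus node, fell to 1.03 FPKM against 199, 199.6 and 95.5, LHX8, a forebrain and oocyte factor, to 0.821 against 62, 55.4 and 69, and the kidney factor PAX2 to 0.0238 against 42, 42.4 and 24.6. The adjacent genes DLX5 and DLX6, factors of bone and ventral forebrain, were at 0.075 and 0.001 FPKM in A2780CIS, against 88.6, 106 and 28.5 for DLX5 and 58.8, 76.1 and 23.7 for DLX6. MAB21L1 and MAB21L2, relatives needed for the eye, were at 0.001 and 0.0357 FPKM, against 123, 97.3 and 78 and against 81.9, 88.5 and 56.8; they lie inside NBEA and LRBA on other chromosomes, and NBEA was also switched off.

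Over the whole non-HOX homeodomain list 11 of 56 tested members rose and 19 fell (median -0.61). Within the HOX and paired box list 5 of 24 rose and 5 fell. HOXC10 rose to 152 FPKM against 28.8, 24.7 and 28.4. HOXD9, HOXD8 and HOXD4, neighbours in 1 cluster, were all listed at 0.001 FPKM in A2780CIS, against 19.9, 20.4 and 17.5, 5.76, 7.43 and 5.14 and 6.76, 7.26 and 8.14 FPKM. Among forkhead, T-box, GATA, HAND and SOX factors, also added later, 11 of 32 rose and 4 fell: GATA2, a blood and endothelial factor, rose to 108 against 6.97, 7.24 and 9.76, SOX8, a gonad and crest factor, was at 35.8 against 0.144, 0.164 and 0.121, and EOMES rose to 36.1 against 4.21, 5.01 and 2.06, while HAND2 fell to 0.0423 against 9.22, 8.19 and 8.76.

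LIN28A, which blocks maturation of let-7 microRNAs, fell to 0.0481 FPKM against 47.1, 61.2 and 61.3, and its relative LIN28B to 10.6 against 59.7, 69.6 and 44.3. Of 11 tested stem cell factors 0 rose and 4 fell. Neuronal and synaptic genes fell in 9 of 18 tested members and rose in 2: EPHA7, a guidance receptor, fell to 0.0142 against 49.8, 50.9 and 30.9, while the guidance ligand SEMA3D rose to 49.2 against 1.46, 1.99 and 1.24.

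Some switched genes had a neighbour with the same switch. Of the off genes 32 lay within 1 Mb of another, in 12 groups, and of the on genes 26, in 12 groups; some of these loci overlap each other, and no share expected from gene density was computed. The largest off group was SNX7, LPPR5, LPPR4 and PALMD on chromosome 1; all 4 were at 0.001 FPKM. CASP4, CASP1 and CARD16 formed another, and KLHL14, CCDC178 and ASXL3 a further one. Among the on groups were COL12A1, FILIP1 and MYO6, and RALYL, LRRCC1 and CA13. In OVCAR3, 25 of the on genes and 23 of the off genes were at 5 FPKM or more in both libraries, and 46 and 34 were under 0.5 FPKM in both.

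MEST, an imprinted gene of the hydrolase family expressed from the paternal allele, had the largest gap of any gene named here below the range. It was at 0.438 FPKM in A2780CIS, against 1326, 1380.4 and 1164 FPKM, and at 52.4 and 51.5 FPKM in OVCAR3 (difference -9.81 ± 0.17, limma adjusted p = 0.000486). Its locus overlaps MESTIT1, MIR335 and COPG2. DLK1, a paternally expressed Notch ligand relative, was listed at 0.001 FPKM against 15.9, 17.3 and 14.6, and the maternally expressed RNA H19 rose to 10.4 against 0.845, 1.15 and 0.677. Of 15 tested imprinted genes 4 rose and 4 fell. In the DNA methylation machinery 0 of 15 rose and 3 fell (median -0.37). Below the range lay 14 of the 15, against 41.0% of all tested genes, and 2 of them by at least 2-fold. DNMT3B, a de novo methyltransferase, fell to 2.07 FPKM against 7.96, 7.96 and 8.84, and DNMT3A to 5.09 against 20.5, 19 and 12.1. TET2, which oxidizes methylcytosine, fell to 4.27 against 10.7, 11.4 and 9.14. The 3 calls ended without A2780-scrambled shRNA (limma adjusted p of 0.0509 to 0.143), and those of DNMT3A and TET2 without A2780-shCOL11A1 (0.0892 and 0.0851).

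Promoter windows of 250 bases before to 50 after the start were found in the RefSeq table (GRCh38.p14) for 9672 of the 12083 tested genes. A window was called CpG-rich at a GC fraction of at least 0.5 and an observed over expected CpG ratio of at least 0.6. This held for at least 1 window of 88.5% of matched tested genes, 86.7% of those that rose and 78.7% of those that fell, and for 72.7% of 66 matched on genes and 65.7% of 70 matched off genes. DNA methylation was not measured.

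Interferon-stimulated genes were lower as a group. These genes are turned on by interferons through a repeated GAAA element in their promoters, which a complex with STAT2 and IRF9 binds, and encode antiviral proteins. Of 34 tested, 19 fell and 1 rose, with a median difference of -1.34. Those that fell numbered 11 without A2780-scrambled shRNA, 15 without A2780-shCOL11A1 and 26 without A2780-COL11A1. BST2, tetherin, which holds budding viruses at the cell surface, fell to 0.497 FPKM in A2780CIS, against 409, 416 and 303 FPKM. IFI27 was listed at 0.001 FPKM against 40.2, 34.4 and 51.2, GBP1, an interferon-induced GTPase, fell to 0.483 against 16, 17.4 and 20.7, and ISG15, a ubiquitin-like modifier, to 32.4 against 113, 121 and 98.4. IFITM1, which blocks viral entry, fell to 42.2 FPKM against 323, 311 and 363; IFITM1, IFITM2 and IFITM3 are near-identical copies, so their split is uncertain, and IFITM2 was at 129 FPKM against 54.3, 53.3 and 77.2.

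IFIT1, which binds viral RNA lacking a cap methyl group, was the member that rose, to 109 FPKM against 18.1, 21 and 9.39 (2.75 ± 0.45, limma adjusted p = 0.0199). Upstream factors were lower too: STAT2 fell to 4.33 FPKM against 14.7, 13.9 and 15.2, IRF9 to 10.2 against 33, 36.2 and 25.6, and IRF1 to 6.72 against 27, 33 and 39.8. STAT2 and IRF9 missed the threshold without A2780-scrambled shRNA (limma adjusted p of 0.0552 and 0.0778).

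The 250 bases before the start are shown for 4 members that fell and for IFIT1, since all carry the element and differ in direction. IFI27 has 2 annotated starts. The window with the lower coordinates is shown, and the other also holds 2 matches. Capitals mark GAAANNGAAA, searched on both strands (its reverse complement is TTTCNNTTTC; overlapping matches are joined). Bases are from RefSeq, GRCh38.p14, 5′ to 3′ along the gene's strand.
BST2, chr19:17405631-17405880, minus strand: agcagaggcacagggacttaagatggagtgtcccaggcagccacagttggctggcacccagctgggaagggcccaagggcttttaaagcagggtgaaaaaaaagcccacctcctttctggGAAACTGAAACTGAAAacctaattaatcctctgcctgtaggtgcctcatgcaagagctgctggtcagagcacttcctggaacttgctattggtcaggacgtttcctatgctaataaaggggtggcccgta
IFI27, chr14:94110486-94110735, plus strand: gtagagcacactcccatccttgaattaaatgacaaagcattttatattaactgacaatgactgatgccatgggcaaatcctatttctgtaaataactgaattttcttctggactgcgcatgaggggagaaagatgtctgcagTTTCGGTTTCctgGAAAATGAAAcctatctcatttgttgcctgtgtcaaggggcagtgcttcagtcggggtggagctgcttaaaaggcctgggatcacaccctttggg
GBP1, chr1:89065209-89065458, minus strand: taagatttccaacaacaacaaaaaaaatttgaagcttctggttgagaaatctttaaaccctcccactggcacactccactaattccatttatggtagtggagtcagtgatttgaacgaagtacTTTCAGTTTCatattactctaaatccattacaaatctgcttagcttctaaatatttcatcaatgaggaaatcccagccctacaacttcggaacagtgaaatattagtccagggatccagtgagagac
IFITM1, chr11:313790-314039, plus strand: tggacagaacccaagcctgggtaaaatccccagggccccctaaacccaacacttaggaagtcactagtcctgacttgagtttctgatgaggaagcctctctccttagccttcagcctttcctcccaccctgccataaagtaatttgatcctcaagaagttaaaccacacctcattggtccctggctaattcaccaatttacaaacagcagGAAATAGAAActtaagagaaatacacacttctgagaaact
IFIT1, chr10:89392373-89392622, plus strand: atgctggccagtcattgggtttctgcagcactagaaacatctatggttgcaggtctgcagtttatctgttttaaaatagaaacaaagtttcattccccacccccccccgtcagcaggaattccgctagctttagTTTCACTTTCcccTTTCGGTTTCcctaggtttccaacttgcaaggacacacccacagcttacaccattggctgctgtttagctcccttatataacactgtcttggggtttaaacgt
In BST2 2 matches overlap in 1 run, IFI27 and IFIT1 hold 2 separate matches each, and GBP1 and IFITM1 hold 1.

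The element was in at least 1 window of 3.71% of all matched genes (359 of 9672), of 20 of 29 matched interferon-stimulated genes tested (69.0%), of 12 of 16 of those that fell (75.0%) and of 8 of 13 of the rest (61.5%). The letters were thus present both in members that fell and in members that did not pass or rose, and binding was not measured.

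MHC class I presentation had the highest share of falling genes of any list with at least 8 tested members: 14 of 19 tested fell and 0 rose, with a median of -1.63. Leaving out 1 of the 3 others gave 12 to 18 that fell. HLA-B fell to 59.5 FPKM in A2780CIS, against 717, 585 and 749 FPKM, HLA-C to 126 against 712, 595 and 727, and the light chain B2M to 230.2 against 1145, 997 and 1393. The HLA genes are variable and alike, so their split depends on the reference. TAP1, which carries peptides into the endoplasmic reticulum, fell to 7.58 against 74.6, 72.6 and 64.1, PSMB9, an immunoproteasome subunit, to 0.217 against 36.7, 30.6 and 45.9, and NLRC5, the transactivator of these genes, to 1.21 against 18.7, 17.5 and 15.8. In OVCAR3, HLA-B was at 37.4 and 39.4 FPKM.

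Among genes of platinum handling more fell than rose, as over all tested genes, but the counts rested on single libraries. By limma 8.7% rose and 21.7% fell, against 9.15% and 9.85% of all tested genes, so the rising share was near the background. Of 23 tested platinum transport and detoxification genes 2 rose and 5 fell (median -0.28); without A2780-scrambled shRNA 1 rose and 0 fell, and without A2780-shCOL11A1 2 rose and 0 fell (limma). MGST1, a membrane glutathione transferase, rose to 37.7 FPKM against 3.4, 4.0 and 3.35, and SLC47A1, an organic cation exporter, to 16.3 against 5.34, 5.76 and 5.5. GSTM2 and GSTM4, cytosolic glutathione transferases with similar sequences, fell to 9.88 against 63.5, 61.8 and 33.2 and to 8.42 against 17.6, 15.6 and 18.6, and LRRC8D, a channel subunit that admits platinum drugs, to 14.7 against 32.9, 32.4 and 26.7. These genes lie in stretches of chromosome 1 where most tested genes were below the range, described with the blocks below. The median difference was -0.91 in the block of GSTM2 and GSTM4 and -0.83 in that of LRRC8D. Without A2780-scrambled shRNA all of these but MGST1 missed the threshold (limma adjusted p of 0.0572 to 0.177), and without A2780-shCOL11A1 all but MGST1 and SLC47A1 (0.0547 to 0.0968). The copper transporter SLC31A1, a reported entry route, was inside the range at 39.6 FPKM against 32.2, 32.7 and 67.9. The copper exporters ATP7A and ATP7B were at 2.81 FPKM against 2.01, 2.37 and 2.37, and at 2.09 against 4.31, 3.42 and 4.83, and missed the threshold (adjusted p = 0.431 and 0.0915, limma). ABCB1, the multidrug pump, was at most 0.0172 FPKM in every A2780 library. Of 12 members of the list of metallothioneins and their regulator MTF1, 3 were tested and 0 passed in limma, where 2 had an unadjusted p under 0.05 and the smallest adjusted p was 0.067.

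ERCC1, a subunit of the nuclease that cuts 5′ of a platinum lesion, rose to 123 FPKM in A2780CIS against 61.5, 54.9 and 48.4 (1.15 ± 0.20, limma adjusted p = 0.0215), with CD3EAP overlapping its locus. ERCC5, the nuclease on the other side, fell to 1.54 against 4.14, 4.09 and 5.16; in all, 2 of 25 excision repair genes rose and 1 fell. Of 36 genes of homologous recombination, the Fanconi pathway and translesion synthesis 3 rose and 0 fell: the kinase ATM to 13.3 against 6.6, 7.79 and 6.71, and the recombination genes RAD51B and RAD51D, by 0.98 ± 0.21 and 0.85 ± 0.19. None of these 5 calls stood without A2780-scrambled shRNA (limma adjusted p of 0.079 to 0.232) or without A2780-shCOL11A1 (0.0631 to 0.123). Both lists were under the shares over all tested genes, 9.15% up and 9.85% down. Excision repair had 8.0% up and 4.0% down, and the recombination list 8.3% and 0.0%.

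In mismatch repair 1 of 8 tested genes rose and 1 fell. MSH6, which recognizes mismatches, fell to 26.2 FPKM in A2780CIS against 70.6, 75.7 and 65, and MLH3, which acts after recognition, rose to 4.94 against 0.269, 0.364 and 0.281. MSH6 missed the threshold without A2780-scrambled shRNA (limma adjusted p = 0.0631).

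Some cell death genes rose and others fell. In the BCL2 family list 15.4% of tested members rose and 15.4% fell by limma, against 9.15% and 9.85% of all tested genes. PMAIP1, the BH3-only protein NOXA that neutralizes MCL1, was at 23.6 FPKM in A2780CIS against 0.0395, 0.0898 and 0.199, and MCL1, an anti-apoptotic protein, fell to 97.9 against 181, 205 and 207. BAX, a pore former of the mitochondrial membrane, fell to 60.7 against 133, 131 and 188, BID, its activator, rose to 28.3 against 10.8, 10.5 and 11, and the death receptor FAS rose to 21.1 against 2.56, 4.26 and 2.34; ACTA2 overlaps FAS. The calls of BAX, MCL1 and BID ended without A2780-scrambled shRNA (limma adjusted p of 0.0773 to 0.0987), and those of BAX and MCL1 without A2780-shCOL11A1 (0.0565 and 0.0636). Over 13 BCL2 family genes 2 rose and 2 fell, and over 8 inhibitors of apoptosis and antagonists 0 and 0 (limma; 3 had an unadjusted p under 0.05). CDKN1A, the cell cycle inhibitor p21, had 43.2 against 62, 69 and 91.8 (adjusted p = 0.11, limma).

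Some genes of energy metabolism fell. Of 47 oxidative phosphorylation subunits 0 rose and 11 fell (median -0.45), among them ATP5B, the catalytic subunit of ATP synthase, at 228 FPKM against 678, 605 and 748. The 11 became 1 without A2780-scrambled shRNA, 5 without A2780-shCOL11A1 and 21 without A2780-COL11A1. Of 24 glycolysis genes 1 rose and 5 fell (median -0.63), and 3 to 13 fell with 1 of the others left out: ENO2, the neuronal enolase, fell to 0.413 against 53.4, 37.5 and 38, ENO3, the muscle enolase, to 19.4 against 119, 99.4 and 88.3, and ALDOA, aldolase, to 167 against 689, 526 and 489. HIF1A, an oxygen-regulated factor known to act on many glycolysis genes, fell to 25.1 against 72.1, 71.8 and 75.8. A link between its level and theirs was not tested. In fatty acid beta-oxidation 4 of 32 rose and 0 fell (median 0.15), a rising share near the background: CPT1A, which admits fatty acids to mitochondria, rose to 25.7 against 7.36, 6.43 and 7.46, and DECR1 to 80.9 against 20.3, 20.9 and 30.1; DECR1 missed the threshold without A2780-scrambled shRNA (limma adjusted p = 0.0581).

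ASS1, argininosuccinate synthase, without which cells need external arginine, was among the genes farthest below the range, at 0.0578 FPKM in A2780CIS against 84.2, 61.3 and 89 FPKM, and at 336 and 274 FPKM in OVCAR3. Loss of ASS1 is known from platinum-resistant ovarian tumours and lines. AHCY, which clears S-adenosylhomocysteine, rose to 776 against 188, 175 and 164, MAT2B, a regulator of methionine adenosyltransferase, to 116 against 32.8, 27.6 and 32, and CTH, which makes cysteine, to 27.2 against 3.85, 4.06 and 6.73; PHGDH, the first enzyme of serine synthesis, fell to 68.9 against 252, 198 and 259.7. In retinoid handling STRA6, the retinol uptake receptor, fell to 0.0353 against 81.3, 67.7 and 31.7 and CRABP2, which carries retinoic acid to the nucleus, to 5.99 against 191, 195 and 148, while ALDH1A3, which makes retinoic acid, rose to 9.74 against 0.374, 0.496 and 0.577.

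Other genes far below the range were PI15, a secreted protease inhibitor, at 2.67 FPKM against 280.1, 346 and 266, the RNA-binding protein gene RBPMS at 0.167 against 95.1, 101 and 66.5, and RGS1, which quenches G protein signals, at 0.001 against 98.3, 130.5 and 58.9. Of 48 cytosolic ribosomal protein genes 1 rose and 2 fell, and of 40 cell cycle genes 1 rose and 2 fell, shares under the background in both directions. Ribosomal protein genes have many near-identical pseudogenes, so single members are less certain.

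Differences also ran in blocks along chromosomes. A block was a stretch in which at least 20 of 25 consecutive tested genes lay on the same side of the range, and 16 were found. Chromosome 8 had 59.0% of its 400 tested genes above the range, against 35.3% of all, and 3 higher blocks; in the one with the largest median difference, 1.07, 24 of 46 genes rose. Chromosome 13 had 75.4% of 191 genes below it, against 41.0% of all, and 2 lower blocks. On chromosome 1, lower blocks with medians of -0.83 and -0.91 ended and began on either side of COL11A1, which itself rose.

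On chromosome 6, a lower block of 45 genes held the large histone cluster (median -0.97) and another of 30 genes held PSMB9 and TAP1 in the MHC (median -0.81). Histone genes fell in 10 of 21 tested members and rose in 0 (median -1.28); 5 fell without A2780-scrambled shRNA, 5 without A2780-shCOL11A1 and 18 without A2780-COL11A1. Their mRNAs mostly lack a poly-A tail, so their level in a poly-A library also depends on RNA selection, whose part was not tested. DNA copy number was not measured.

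**Figure D4:**
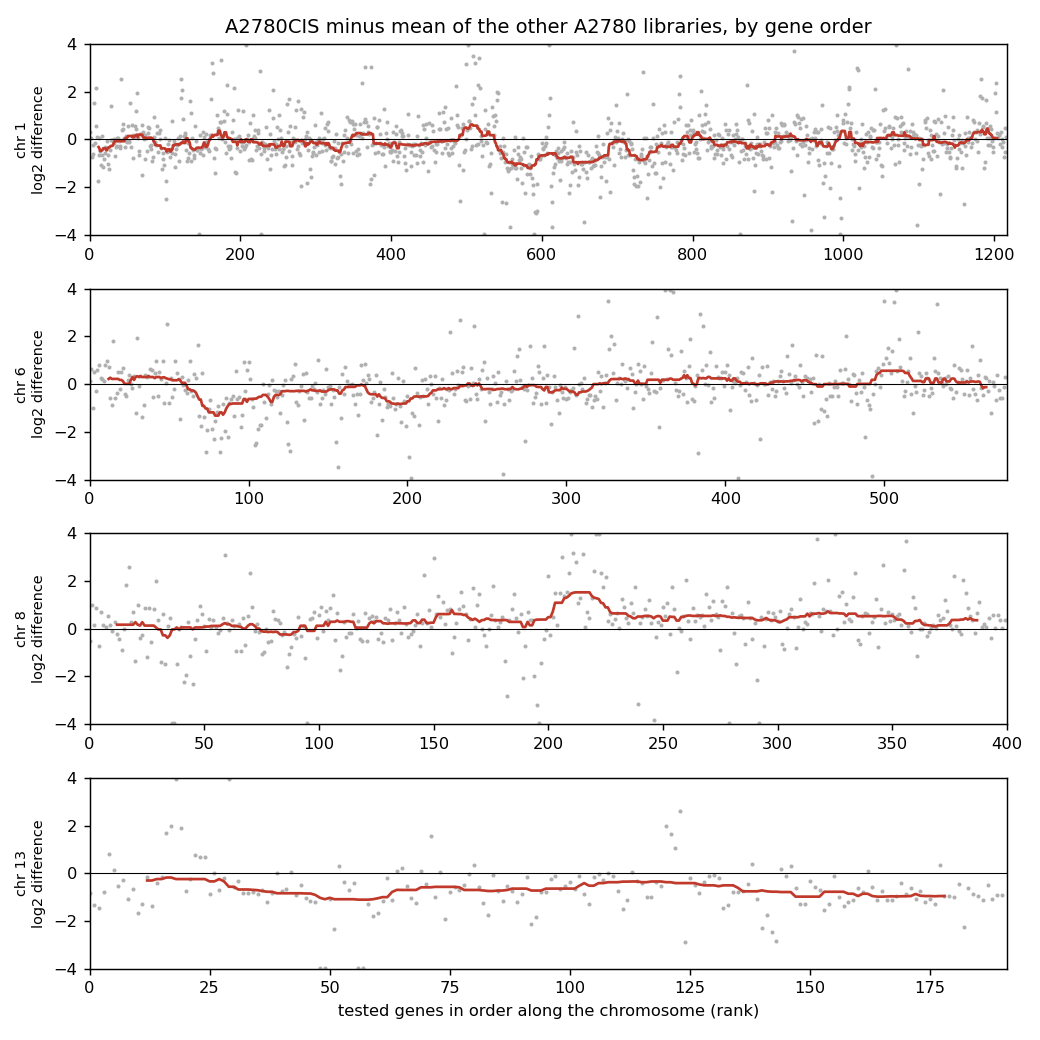
Log2 difference between A2780CIS and the mean of the 3 other A2780 libraries for each tested gene (grey points) in order along chromosomes 1, 6, 8 and 13, with a running median of 25 genes (red line); 30 genes past 4 on either side are drawn at the edge. The line lies above 0 over much of chromosome 8, below 0 along nearly all of chromosome 13, and dips in the lower blocks of chromosomes 1 and 6.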

How the data were processed

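RNA from 6 cultures was sequenced with 1 library each; per the labels, poly-A RNA went into a stranded kit and was read single-end over 75 bases. The deposited table holds 1 value per gene and library, named FPKM per the file headers; in a few cells a word (LOWDATA or FAIL) stands where a value should, so the unit was recorded as other, and the authors' filter and program are not given in the sources used here. The submitters' processing notes name STAR 2.5.0 and RSEM 1.2.25 with GRCh38, but the loci pass the end of GRCh38 chromosome 1 by 256923 bases and follow GRCh37. Whether counting used strand is not stated.

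Of 25275 entries, 23145 genes were kept, leaving out other contigs, entries marked low or failed, date-like names and 306 names with several loci. The 12083 genes averaging 1 FPKM or more across A2780CIS and the 3 others entered limma 3.58.1 in R 4.3.3 on log2(FPKM + 1), A2780CIS against the 3 others, with an intensity trend, Benjamini-Hochberg 5%, two-sided; the program was tested on simulated data. The authors' log2 values were not used. No separate cultures are recorded per construct. Genes were named by the largest gap to the nearest other library (14 per direction, at least 5 FPKM in the higher), up to 6 per list by gap, members with a textbook role, switched genes, neighbours in 2 regions and COL11A1; small RNAs, pseudogenes and loci without a name were not named, except WTAPP1 for its overlap. Members and lists were chosen with earlier results of these data known. Some genes and 1 list are not reported here. Alternatives changed the pseudocount (0.1), filter, scaling, trend, libraries, fold and window.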

Additional observations from a re-analysis of the deposited data

How the results depend on the processing

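With a mean of at least 5 FPKM, 646 genes rose, 418 lay at least 2-fold above the range and 10 blocks were found, where fewer genes were tested; with no filter 782 fell. A gap of 3-fold left 414 genes above and 348 below, and a window of 15 genes gave 58 blocks. Leaving out 1 of the 3 other libraries gave 440 to 2568 rising genes, 361 to 3382 falling genes and 18 to 37 blocks; the highest counts came without A2780-COL11A1, whose removal leaves the 2 most alike libraries. With all 6 libraries 798 rose and 805 fell. Switched counts without 1 library, an alternative chosen after seeing the data, were 98 to 107 on and 102 to 143 off. Of 2722 values of 351 named genes under alternatives, 2367 kept direction and call, 239 lost the call (92 without A2780-scrambled shRNA, 61 without A2780-shCOL11A1, 71 with no filter) and 113 gained one. Direction turned only for genes inside the range. For FOS the log2 difference without A2780-COL11A1 was 0.079, and -0.54 without A2780-scrambled shRNA; for SLC31A1 they were 0.28 and -0.25, and 0.013 with quantile normalization; the cause was not tested. Of 57 list medians 18 changed sign under an alternative. No paired analysis was possible because A2780CIS has 1 library and shares no pairing with the others. The depth of each library is unknown beyond the relative estimates and the labelled average, so values near 0.001 FPKM are not told from 0.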
